A study of Mus musculus with 2 samples.

Results

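Cluster 6 is the group of mouse corneal epithelial cells that the authors' deposited table of cells numbers 6, and it carries the superficial markers Psca, Krt78, Asprv1, Ndrg1 and Oasl1. Its members were taken by that number alone and came to 2185 of the 28867 cells in the 17 deposited clusters. They came from 2 droplet libraries, with 1533 cells from UW, which pooled the corneas of 4 unwounded mice, and 652 cells from W, which pooled those of 4 mice collected 24 h after the corneal epithelium had been wounded. The study assigned cells to mice by genotype, but that assignment was not analysed here, so each condition was treated as 1 library and no difference between UW and W was tested. The wound was made in the epithelium itself and the cells were released by enzymes, so cells removed by the wound, cells lost in digestion and cells that altered their transcripts in place cannot be told apart. No cell barcode of cluster 6 was shared by the libraries, against 52 in the whole series.

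The corneal epithelium is a stratified layer that is renewed from limbal stem cells at its rim. Cells move from the basal layer through suprabasal wing cells to flat superficial cells, which seal the surface with tight junctions, carry membrane mucins under the tear film and are then shed. Keratin 12 marks the corneal lineage at most of these stages, keratin 14 marks the basal layer, and keratins 16 and 17 are known as keratins of wounded epithelium.

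Levels are given as CPM, the unique molecular identifiers (UMIs) of a gene summed over the cells of the cluster in a library, per 1000000 UMIs of that sum. The sums held 43534548 UMIs in UW and 14891354 in W, and a cell held a median of 26510 UMIs and 3700 genes in UW and 20913 UMIs and 3233.5 genes in W. Intervals are 95% exact intervals for counting error, Poisson for levels and Clopper-Pearson for shares of cells, and do not cover variation between mice. UMIs of 1 cell are not independent draws from a condition, so the intervals are narrower than any error of a condition would be. A ratio is W over UW on the log2 scale.

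The name superficial was checked against the other clusters. In UW, Psca, which encodes a lipid-anchored protein of the Ly6 family, was at 28761 CPM in cluster 6, 5892 in cluster 2 and 39970 in cluster 7, and at 345 in cluster 3, where Krt14 was at 1256 CPM. Asprv1, a skin-type aspartic protease that processes filaggrin in epidermis, was at 28493 CPM in cluster 6 and 33777 in cluster 7. Both genes marked clusters 6 and 7 together, with the higher level in cluster 7. Krt78, a keratin of differentiated stratified epithelia, was at 374 CPM (368 to 380) in cluster 6 of UW and 223 CPM in cluster 7, and in W at 68.6 CPM (64.4 to 72.9) and 76.8 CPM. The order of clusters 6 and 7 for Krt78 was thus not kept in W. Ndrg1, a stress and differentiation gene, was at 496 CPM in cluster 6 of UW, above the other 5 clusters plotted, and at 110 CPM in W, where cluster 3 was at 159 CPM. Oasl1, which encodes an interferon-induced protein of the oligoadenylate synthetase family, was higher in cluster 6 than in clusters 3, 1, 4, 2 and 7 in both libraries, at 373 CPM in UW and 630 CPM in W. Cluster numbers were made from the same counts, so these are descriptions of the cluster and no test. In GRCm38, Psca lies at chr15:74714839-74717069 on the plus strand, Krt78 at chr15:101946001-101954287 on the minus strand, Ndrg1 at chr15:66929318-66969640 on the minus strand, Asprv1 at chr6:86628164-86629710 on the plus strand and Oasl1 at chr5:114923240-114937915 on the plus strand.

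**Figure D1:**
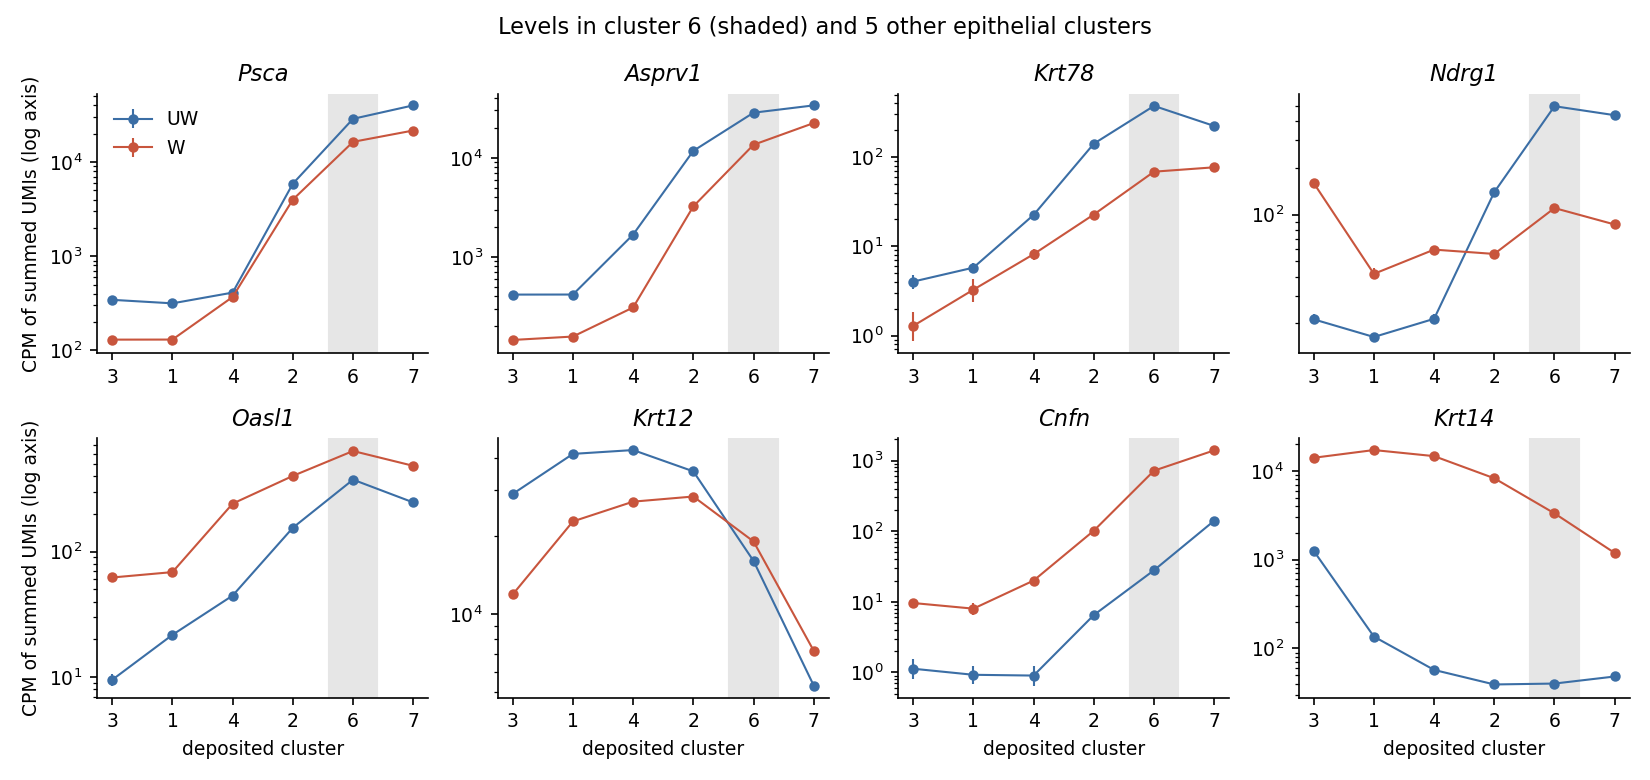
Levels of 8 genes, as CPM of summed UMIs on a log axis, in deposited clusters 3, 1, 4, 2, 6 and 7, with UW in blue, W in red and bars for the 95% Poisson interval. Psca in cluster 6 was at 28761 CPM in UW and 16390 in W, and Krt14 was at 40.3 and 3317 CPM.

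By the correlation of log2(CPM + 1) across 20198 genes, averaged over both libraries, the epithelial clusters most like cluster 6 were 2 (Pearson r = 0.980 in UW and 0.988 in W), 7 (0.965 and 0.977) and 4 (0.953 and 0.971). Genes within a library share its depth and free RNA, and they are not replicates. Krt12 was lower at each step from cluster 4 to cluster 7 in UW, with 42955 CPM in cluster 4, 35550 in cluster 2, 16038 in cluster 6 and 5299 in cluster 7. Muc4, a membrane mucin, had the opposite order, with 420, 1127, 2093 and 2542 CPM. Cluster 6 therefore lay between clusters 2 and 7 for both genes.

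The 15 genes with the largest ratio of cluster 6 to all other epithelial clusters, both libraries summed, were led by Upk3b, a uroplakin of surface cells (9.10 times), Krt78 (6.90 times), Psca (5.74 times) and Bcas1 (5.72 times). Oasl2 (4.81 times), Ndrg1 (4.75 times), Asprv1 (4.71 times), the lipid enzyme gene Agpat2 (4.68 times) and Rnf39 (4.67 times) were also among them. The rank of Upk3b rested on UW. It had 3364 UMIs in UW and 23 in W, or 77.3 and 1.54 CPM, a log2 ratio of -5.64 (-6.30 to -5.06), and in cluster 7 of W it was at 1.76 CPM. Bcas1 was at 234 and 69.8 CPM, and Rhpn2, another of the 15, was at 219 and 203 CPM.

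Cluster 6 made up 9.32% (8.88 to 9.77) of UW cells and 5.25% (4.87 to 5.66) of W cells. Of the cells in the 10 epithelial clusters, it made up 11.4% (10.8 to 11.9) in UW and 7.66% (7.11 to 8.25) in W. Cluster 2 was at 11.6% and 7.15% of cells, and cluster 7 at 9.19% and 4.25%, so the lower share in W was not particular to cluster 6. Genes that set the clusters also differed between libraries, and the pooled libraries held other cell types in different amounts, so the shares describe the tables and not the tissue.

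Of 7542 genes with at least 20 counts in both sums together and at least 5 CPM in a library, 855 (11.3%) were at least 2-fold higher in W and 710 (9.41%) at least 2-fold lower. A gene below 5 CPM in UW was compared only through its W level, so its direction was set by the filter, and the same held for the reverse. Of the 855 higher genes, 428 were of that kind, and of the 710 lower ones 193 were below 5 CPM in W. The median log2 ratio of all these genes was -0.06. Scaling by TMM moved every log2 ratio by -0.16 and gave 685 genes higher and 990 lower, so that 40.9% of the genes past 2-fold were higher, against 54.6% without it. The number of genes in each direction thus rested on the scaling. Of the 141 genes past 2-fold among those chosen for naming, 131 stayed past it under TMM.

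Among genes with at least 100 CPM, the 12 with the highest ratios included keratins and genes of the cornified layer. Krt14 was at 40.3 CPM (38.4 to 42.2) in UW and 3317 CPM (3288 to 3346) in W. Krt16 was at 116 and 3996 CPM, and Krt17 at 10.8 and 347 CPM. Sprr1a, a precursor of the cornified envelope, was at 16.2 CPM in UW and 1151 CPM in W. Cnfn, encoding cornifelin of the same envelope, was at 28.0 and 718 CPM. Fabp5, an epidermal fatty acid binding protein, was at 55.2 and 2032 CPM, and Ccdc71l at 17.7 and 309 CPM. S100a9, a calcium-binding alarmin of neutrophils and stressed epithelium, was at 3.12 CPM in UW and 732 CPM in W. The interferon-stimulated genes Ifi27l2a (1.38 and 691 CPM), Ifitm3 (16.8 and 793 CPM) and Bst2 (4.36 and 105 CPM) and the class I light chain gene B2m (32.4 and 547 CPM) completed the 12.

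RNA released from other cells can enter any droplet, so the level in stromal cluster 0, which should lack epithelial genes, was set beside each of these. In W, cluster 0 held Krt14 at 821 CPM, Krt16 at 342, Fabp5 at 595 and Krt17 at 69.7 CPM, all below cluster 6. In UW, cluster 0 held Krt14 at 57.4 CPM and Krt17 at 11.4, at or above cluster 6, so these UW levels were not above background. Ccdc71l was at 27.3 CPM in cluster 0 of UW but at 12.2 CPM in cluster 4, below cluster 6. Cluster 0 was thus not a measure of background for Ccdc71l. Ifi27l2a (97.5 CPM in cluster 0 of UW), Ifitm3 (967 CPM), Bst2 (114 CPM) and B2m (618 CPM) were also above cluster 6 there. In epithelial cluster 4 of UW they were at 1.62, 7.99, 3.36 and 39.3 CPM, so cluster 0 could not serve as background for them. Whether their UW levels in cluster 6 were above background was not tested. Sprr1a was at 15.4 CPM and Cnfn at 6.75 CPM in cluster 0 of W, S100a9 at 41.4 CPM, and Ccdc71l at 34.9 CPM. For Ifi27l2a (1375 CPM), Ifitm3 (5567 CPM), Bst2 (917 CPM) and B2m (1909 CPM), cluster 0 of W was above cluster 6. The part of free RNA in the W levels of these last genes was not tested. After every cell was thinned to 5000 UMIs, which left out 33 UW and 27 W cells, Cnfn was found in 9.33% of cells of cluster 6 in UW and 61.4% in W, against 0.733% and 2.99% of cells of cluster 0, and without thinning in 25.0% and 77.0%. Sprr1a was found in 7.80% of thinned cells in UW and 85.6% in W, against 1.21% and 6.91% in cluster 0. Krt14 was found in 19.8% and 99.0% of thinned cells, but in cluster 0 also in 22.4% and 97.1%, so the share of cells with a Krt14 UMI was at background. The median depth of cluster 0 was 11853 UMIs in UW and 17588 in W.

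The 12 genes with the lowest ratios were Kctd12 (104 CPM in UW and 7.19 in W), Ttc36 (156 and 11.6), Snx31 (135 and 16.1), Cyp4a12b (448 and 71.8), Cdo1 (817 and 139), Krt78, Egr1 (1005 and 200), Pmm1 (172 and 37.3), Slc12a2 (844 and 187), Ndrg1, Pcmtd1 (125 and 29.1) and Slc39a8 (141 and 33.0). Cdo1 encodes cysteine dioxygenase of taurine synthesis, Slc12a2 the sodium-potassium-chloride cotransporter NKCC1, Slc39a8 a zinc transporter, and Egr1 an immediate early transcription factor. For Pmm1 the log2 ratio was -2.20 in cluster 6, -0.70 in cluster 2 and -0.40 in cluster 7. Slc12a2 was as much lower in each of these clusters, with -2.17, -2.21 and -2.11. Cluster 0 was above cluster 6 for Pcmtd1 (160 CPM in UW and 121 in W) and Egr1 (1248 and 218). In W alone it was also above for Kctd12 (27.6 CPM) and Pmm1 (81.5 CPM). The others of the 12 were below cluster 6 there in both libraries. The part of free RNA in these levels was not tested.

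Of the 5 superficial markers, 3 were at least 2-fold lower in W, against 9.41% of all genes, and the median log2 ratio was -1.08. These 5 are the cluster's own markers, known from these same data, in a cluster with more UW than W cells. Their share and median are therefore a description and no test. Psca was at 28761 CPM in UW and 16390 in W (log2 ratio -0.81), Asprv1 at 28493 and 13517 (-1.08), and the only marker that was higher was Oasl1 (0.76). Of the 6 terminal superficial markers, 3 were at least 2-fold higher, against 11.3% of all genes, and 1 was lower. The list's name is not borne out by Lypd2 and Omp. In UW they were at 16352 and 44.7 CPM in cluster 7, and at 18520 and 62.9 CPM in cluster 6. Crct1 (6.98 and 80.9 CPM), Cnfn and the late cornified envelope gene Lce3a (27.4 and 68.3 CPM) were higher, and Lypd2, of the Ly6 family, was at 18520 CPM in UW and 8215 in W. Lce3a was found in 9.33% of thinned cells in UW and 8.48% in W, and as a mean over cells its log2 ratio was 0.70 against 1.32 in the sums, so its higher sum in W rested on few cells.

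Single cells showed which of these differences were shared by the cluster. Psca had a median of 28554 CPM per cell in UW, with 21141 and 36038 as quartiles, and 13061 in W, with 7013 and 21323, so that the ranges of the cells overlapped. Lypd2 had quartiles of 16032 and 21188 CPM in UW and 4026 and 10563 in W, so the central ranges of the cells did not overlap. Krt78 had a median of 344 CPM in UW and 0 in W. It was found in 76.4% of thinned cells in UW and 23.0% in W, against 2.72% and 0.234% in cluster 0. Slc12a2 had quartiles of 583 and 1065 CPM in UW and 68.7 and 264 in W.

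Genes that were higher in W differed in how evenly they were spread. Fabp5 had quartiles of 1013 and 2339 CPM per cell in W. S100a9 had a median of 156 CPM per cell in W and a 95th percentile of 2690 CPM, and 50.8% (46.9 to 54.7) of cells lay above the 95th percentile of cluster 0, which was 147 CPM. Krt14 had a median of 1738 CPM in W and a 95th percentile of 11713 CPM, and 55.4% (51.5 to 59.2) of cells lay above the 95th percentile of cluster 0, 1481 CPM. For Sprr1a the share above that limit was 91.9%, and for Cnfn 69.3%. Over the 652 W cells, Krt14 and Krt16 had a Spearman correlation of 0.39, Krt14 and Fabp5 of 0.46, Krt14 and Psca of -0.45, and Krt14 and Asprv1 of -0.53. Krt14 had weak correlations with S100a9 (0.08) and Cnfn (-0.06). These cells share a library and its free RNA, and the values are a description.

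**Figure D2:**
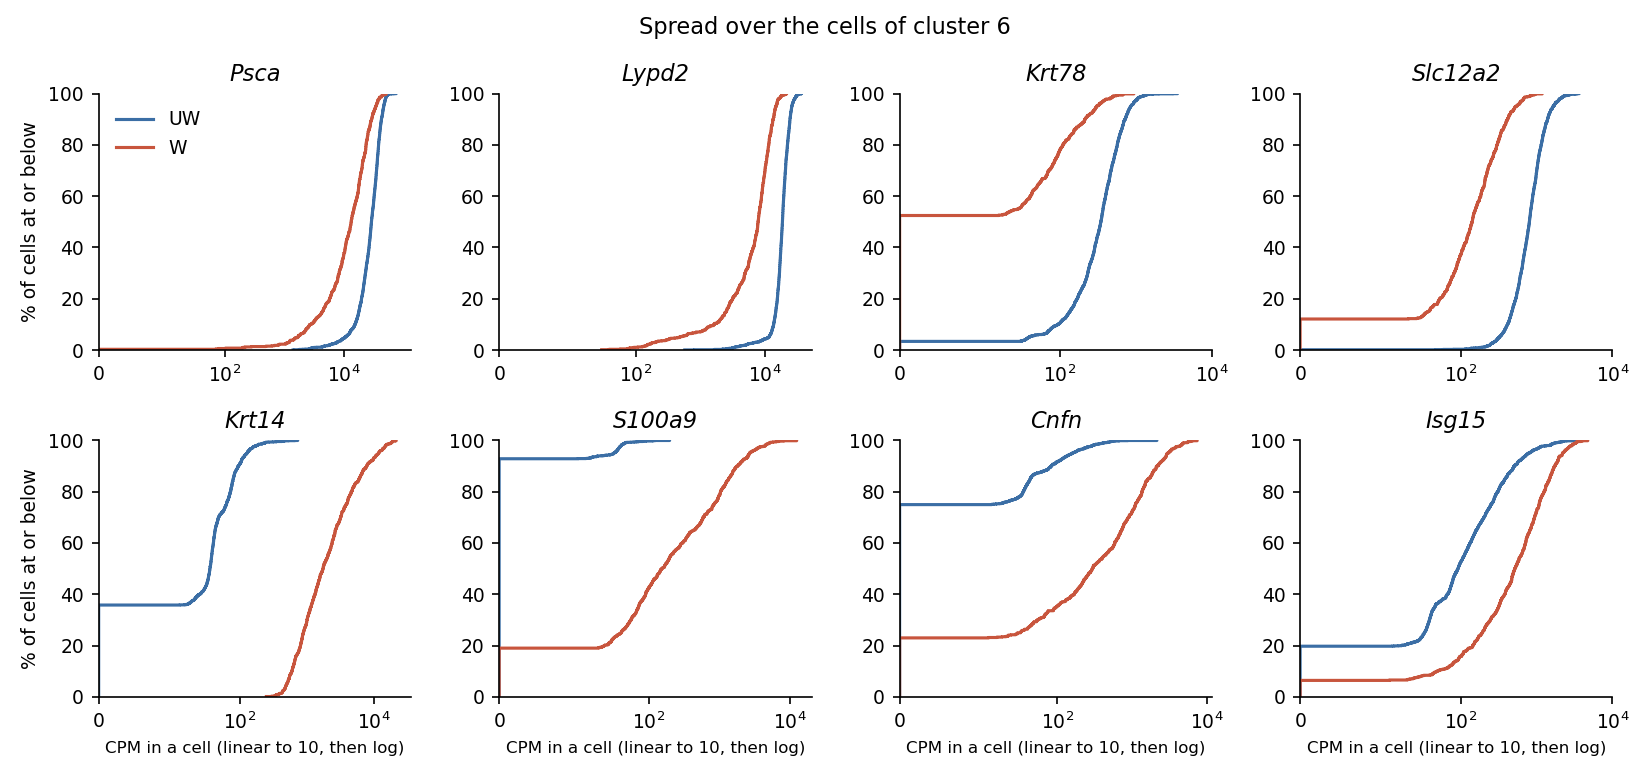
Share of the 1533 UW (blue) and 652 W (red) cells of cluster 6 at or below each level of 8 genes, in CPM of the cell on an axis that is linear to 10 and logarithmic above. The W curves lay left of the UW curves for Psca, Lypd2, Krt78 and Slc12a2 and right of them for Krt14, S100a9, Cnfn and Isg15.

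The deposited table also held a second set of cluster numbers, made at resolution 0.3 on the RNA counts by its column name, where the first set was made at 0.4 on integrated data. In the second set, 1467 of the 1533 UW cells (95.7%) carried number 3, whereas 525 of the 652 W cells (80.5%) carried number 7, 89 carried number 0 and 38 carried number 3. Number 7 held 934 W cells and 42 UW cells in all. Number 3 held 0 UW cells of cluster 5 but 1003 W cells of it. A number shared by UW and W thus need not be the same group. Whether the second set was numbered within each library was not settled. Whether cluster 6 was placed apart by library before integration therefore cannot be told from these numbers. The 89 W cells of number 0, which also held 827 W cells of cluster 2, had Psca at 7486 CPM, Asprv1 at 4310 and Krt78 at 19.1 CPM, with Krt14 at 5747 and Krt16 at 6919 CPM. The 525 W cells of number 7 had Psca at 18076, Asprv1 at 14457, Krt78 at 69.4, Krt14 at 3061 and Krt16 at 3747 CPM. The 38 W cells of number 3, which also held 1003 W cells of cluster 5, had Krt12 at 6463 CPM, Lypd2 at 1761, Krt13 at 14375, S100a9 at 1436 and Isg15 at 191 CPM. Krt14, Krt16, S100a9 and Cnfn were higher in each of the 3 W subsets than in the UW cells of number 3, and Psca, Lypd2 and Krt78 were lower. Median depths were 13629 UMIs in number 0, 22460 in number 7 and 22477 in number 3 of W.

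**Figure D3:**
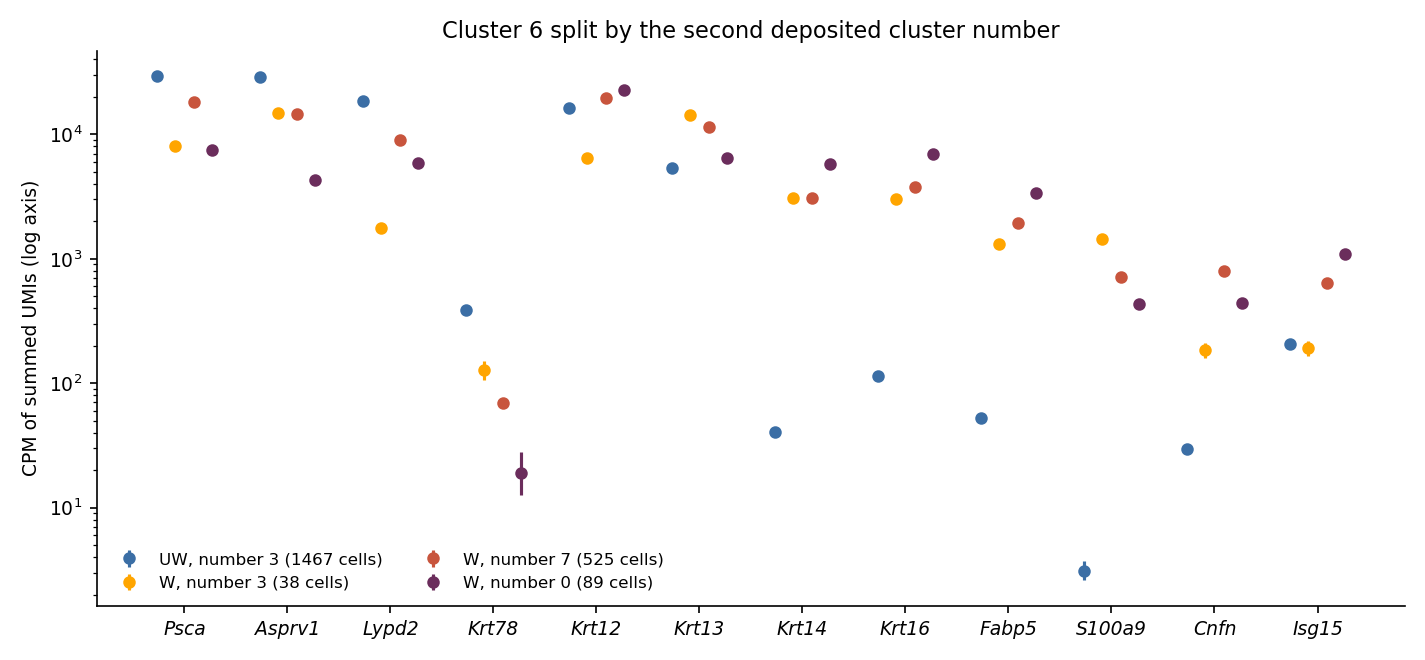
Levels of 12 genes, as CPM of summed UMIs on a log axis with 95% Poisson bars, in the cells of cluster 6 split by the second deposited cluster number, with W cells of number 3 in orange and of number 7 in red. The UW cells of number 3 (blue, 1467 cells) had the highest Psca, Lypd2 and Krt78, and the 89 W cells of number 0 (purple) the highest Krt14 and Krt16 of the 4 sets. A number shared by UW and W need not be the same group.

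Of 17 tested keratins, 8 were at least 2-fold higher in W, 1 of them (Krt18) through its W level only, 1 was lower and 8 were neither. Over all genes 11.3% were higher and 9.41% lower. Krt12 differed little, at 16038 CPM in UW and 19064 in W (log2 ratio 0.25), in contrast to cluster 2 (-0.32). Krt13, a keratin of mucosal and conjunctival epithelia, was at 5461 and 11220 CPM, Krt15 at 3818 and 10917, Krt19 at 148 and 786, and Krt4 at 193 and 591 CPM. Of the 5 tested conjunctival markers 4 were at least 2-fold higher. Krt13 was below 2-fold under TMM (0.88). Krt4 had a log2 ratio of 1.62 in cluster 6, -0.10 in cluster 2 and 3.05 in cluster 7, so the clusters differed in order. Of 7 tested basal markers, 3 were at least 2-fold higher, Krt14, the integrin gene Itgb4 (2.04 and 9.13 CPM, compared only through W) and the hemidesmosome collagen gene Col17a1 (34.5 and 74.9 CPM, but 0.96 on the log2 scale under TMM). Cluster 0 of W held Itgb4 at 8.26 and Col17a1 at 51.6 CPM. The integrin gene Itga6, at 210 and 163 CPM, and the cyclin gene Ccnd1, at 53.4 and 66.4 CPM, were within 2-fold and above cluster 0 in both libraries. Of 5 tested limbal markers, 4 were at least 2-fold higher, 1 of them (Wfdc18) through W only, but cluster 0 of W held Gpha2 at 4206 CPM against 62.5 in cluster 6, and Cd63 at 3505 against 46.9. Of 8 proliferation markers, 2 were compared, both only through their W levels, Top2a at 2.30 and 6.04 CPM and Ube2c at 1.52 and 9.47, with cluster 0 of W at 4.62 and 9.18 CPM. Of 6 tested suprabasal markers, 2 were higher (Krt16 and Spink5, a protease inhibitor, at 59.4 and 327 CPM) and 3 lower, Dsg1a (117 and 32.0 CPM), Ly6g6c (1731 and 423 CPM) and the cell cycle inhibitor gene Cdkn1a (log2 ratio -1.04, but -0.83 in thinned cells).

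The cornified envelope is the crosslinked protein shell that cornified epithelia build under the cell membrane. Of 27 listed genes found in the table, 11 were tested, of which 7 were at least 2-fold higher and 1 was lower, against 11.3% and 9.41% of all genes. Sprr1a, Cnfn, Crct1 and Lce3a are given above, and Ivl, Sprr1b and Sprr2f entered the comparison only through their W levels, so that their direction was set by the filter. Sprr2f had 0 UMIs in UW and 965 in W (64.8 CPM), at least 940-fold higher with the UW sum set to 3 counts, but it was found in 5.60% of thinned W cells and reached 13007 CPM in a cell. Ivl, involucrin, was at 0.459 and 5.44 CPM. The plakin Ppl was at 2036 and 1580 CPM, Evpl at 819 and 720, and the crosslinking enzyme gene Tgm1 at 60.5 and 62.1 CPM, while Scel, sciellin, was at 459 and 159 CPM. Flg and Lor, genes of the cornified epidermis, were below the limit for testing. Members of the Sprr family are near copies of each other, so the division of reads among them is uncertain.

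Of 17 tested surface proteases and inhibitors, 10 were at least 2-fold higher in W, 3 of them through W only (Klk13, Serpinb2 and Serpinb3a), and 1, Asprv1, was lower, where all genes gave 11.3% and 9.41%. Kallikreins, which cleave desmosomes in shedding skin, were among the higher ones, with Klk8 at 9.58 and 132 CPM, Klk10 at 13.2 and 93.5 and Klk11 at 61.7 and 170 CPM. Their levels in cluster 0 of W were 1.91, 0.986 and 3.48 CPM. Among the inhibitors, Cstb was at 619 and 1661 CPM and Serpinb5 at 98.4 and 240 CPM, whereas Cst6 (121 and 109 CPM) and Slpi (38.4 and 27.2 CPM) were within 2-fold. The channel-activating proteases Prss8 (155 and 134 CPM) and Prss27 (874 and 1159 CPM) were within 2-fold.

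Genes of the surface barrier were read against the 11.3% of all genes that were at least 2-fold higher and the 9.41% that were lower. None of the 5 tested membrane mucins and glycocalyx genes passed it, with Muc4 at 2093 and 1525 CPM, Muc20 at 285 and 235, and Lgals3, the galectin that crosslinks mucins, at 2665 and 3287 CPM. Of 14 tested tight junction genes, 12 were within 2-fold, including Cldn7 (1160 and 1409 CPM), Cldn4 (863 and 709 CPM) and Cldn23 (645 and 549 CPM). Cldn1 was higher (5.17 and 27.2 CPM) and the scaffold gene Tjp1 lower (429 and 192 CPM). Of 11 desmosome genes, 3 were at least 2-fold lower, Dsg1a, Dsg2 (68.0 and 25.7 CPM) and Dsc3 (79.2 and 28.6 CPM), whereas Jup (587 and 594 CPM), Pkp1 (213 and 218 CPM) and Perp (1168 and 1169 CPM) were almost level, and Pkp3 was higher (156 and 318 CPM, but 0.87 on the log2 scale under TMM). Of 8 tested genes of water and ion transport, 2 were at least 2-fold lower, Slc12a2 and the sodium channel subunit gene Scnn1a (42.7 and 11.8 CPM). The water channel genes Aqp5 (13386 and 12055 CPM) and Aqp3 (947 and 935 CPM) were nearly level. Of 11 tested Ly6 and uPAR family genes, 2 were lower, Lypd2 and Ly6g6c, and 1 was higher, the urokinase receptor gene Plaur (4.53 and 34.0 CPM, compared only through W), while Slurp1, secreted by corneal epithelium, was at 6866 and 6130 CPM.

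**Figure D4:**
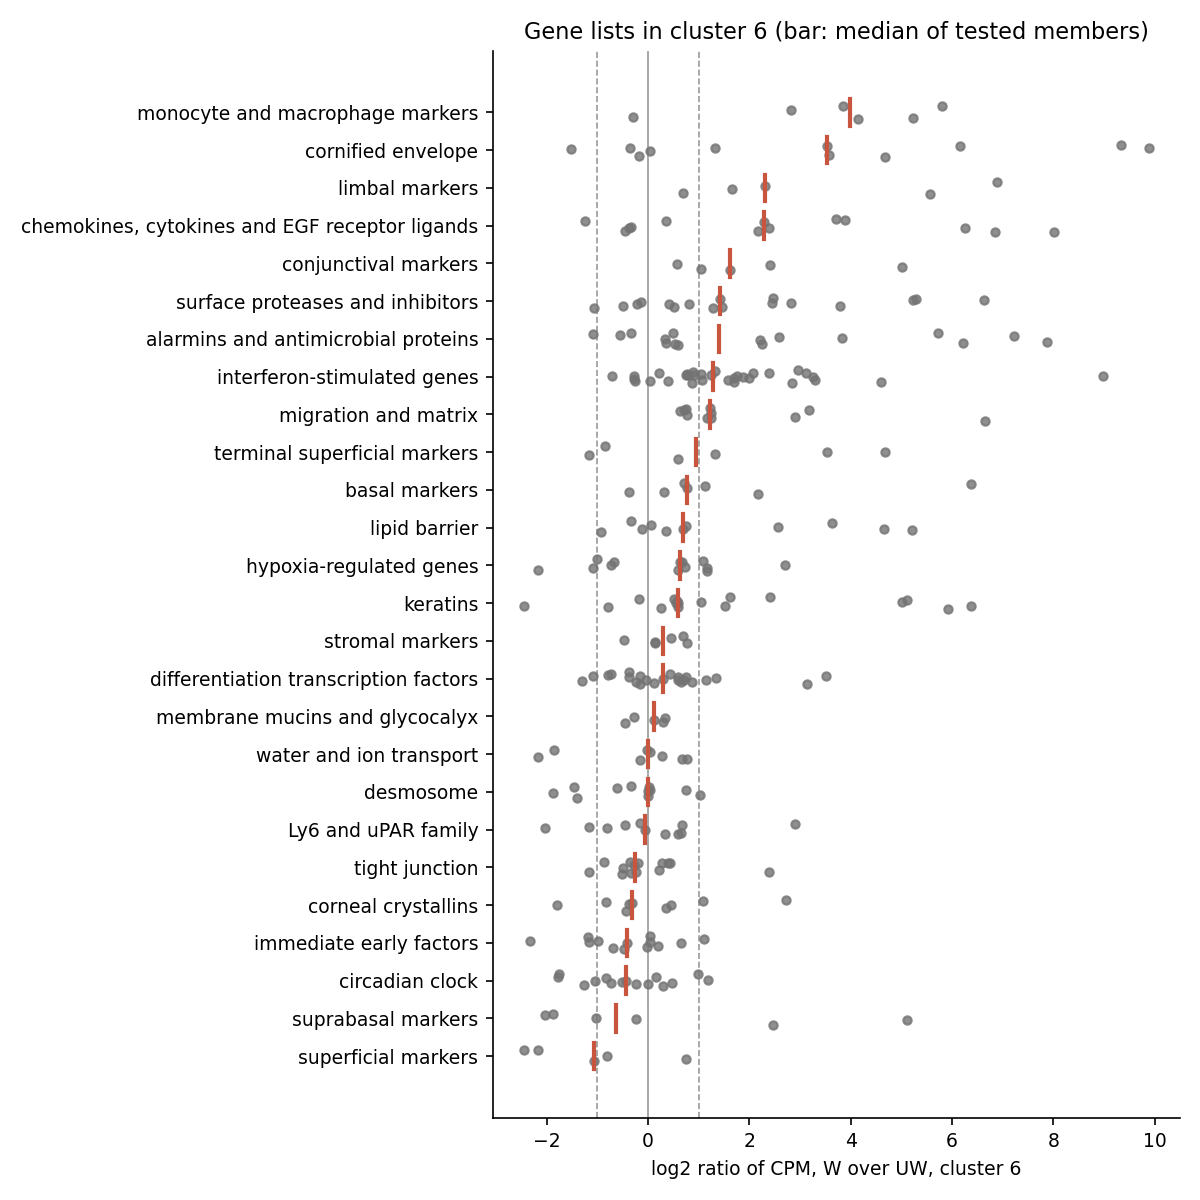
Log2 ratio of CPM, W over UW, of each tested member of the 26 gene lists with at least 5 tested members, each grey point being a gene and the red bar the list's median. Superficial markers had a median of -1.08, against -0.06 over all 7542 genes. They are the cluster's own markers, known from these same data, so this is a description and no test.

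Interferon-stimulated genes, which cells switch on after sensing interferon or viral RNA, included Oasl2 among the 15 leading genes of cluster 6, beside the marker Oasl1. Ifi209, a gene of the interferon-inducible p200 family that the list did not hold, was also among the 15 (4.65 times). In cluster 7 of UW, Oasl1 was at 246 CPM and Oasl2 at 289 CPM. Of 32 tested members, 19 were at least 2-fold higher in W, 3 of them through W only (Bst2, Ifi27l2a and Oas1g), and none was at least 2-fold lower, against 11.3% and 9.41% of all genes. The list summed to 3924 CPM in UW and 6541 in W, and in cluster 0 to 627 and 4068 CPM. Isg15, a ubiquitin-like modifier, was at 199 CPM (195 to 203) in UW and 647 CPM (634 to 660) in W. Ifit3 was at 179 and 581 CPM, Zbp1, a nucleic acid sensor, at 26.4 and 204 CPM, Ifi44 at 9.83 and 96.2, Oas2 at 6.43 and 61.4, and Usp18, which removes Isg15, at 6.29 and 54.5 CPM. Ifit1bl1, a relative of Ifit1, was at 1749 CPM in UW and 1062 in W (log2 ratio -0.72) and Oasl2 at 394 and 323 CPM (-0.28). Ifit1bl1 was also lower in cluster 7 (-0.50) and higher in cluster 2 (0.76). Isg15 was found in 45.5% of thinned cells in UW and 80.0% in W, against 2.42% and 11.4% in cluster 0, and Oasl1 in 71.5% and 89.8%, against 3.15% and 5.33%. Ifit3 was less clear of cluster 0, with 39.1% and 75.2% of thinned cells against 24.1% and 52.0%, and 21.2% of UW cells and 25.0% of W cells lay above the 95th percentile of cluster 0. Over cells, Isg15 and Ifit3 had a Spearman correlation of 0.22 in UW and 0.64 in W. Ifit3 and Ifit3b are near copies, and the division of reads between them is uncertain.

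Promoters from RefSeq (GRCm38.p6), from 250 bases before to 50 after a gene's start, were matched for 25 of the 32 tested interferon-stimulated genes and searched on both strands for the core of the interferon-stimulated response element, the letters GAAA, then any 2 bases, then GAAA. It was present in 17 of the 25, or 68.0%, against 3.44% of all 32851 promoters and 4.10% of the 5958 tested genes with a promoter. The 150 bases before the start are printed 5′ to 3′ on the gene's strand for 3 genes that were higher in W, for Ifit1bl1, which was lower, and for the marker Oasl1, with matches in capitals. Positions are counted back from the base before the start, as -1, to the first base of a match.
Isg15, chr4:156200819-156200968, minus strand: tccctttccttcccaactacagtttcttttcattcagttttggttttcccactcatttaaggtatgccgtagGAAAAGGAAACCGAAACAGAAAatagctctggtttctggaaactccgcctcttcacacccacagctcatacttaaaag
Ifit3, chr19:34583379-34583528, plus strand: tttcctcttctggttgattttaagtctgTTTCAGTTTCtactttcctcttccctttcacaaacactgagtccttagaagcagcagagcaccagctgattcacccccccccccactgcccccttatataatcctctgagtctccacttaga
Bst2, chr8:71537473-71537622, minus strand: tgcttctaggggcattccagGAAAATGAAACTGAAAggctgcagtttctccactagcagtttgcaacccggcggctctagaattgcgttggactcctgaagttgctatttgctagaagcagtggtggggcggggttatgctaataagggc
Ifit1bl1, chr19:34601969-34602118, minus strand: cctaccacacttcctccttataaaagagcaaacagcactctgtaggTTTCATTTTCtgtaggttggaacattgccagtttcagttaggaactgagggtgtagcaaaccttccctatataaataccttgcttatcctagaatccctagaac
Oasl1, chr5:114923090-114923239, plus strand: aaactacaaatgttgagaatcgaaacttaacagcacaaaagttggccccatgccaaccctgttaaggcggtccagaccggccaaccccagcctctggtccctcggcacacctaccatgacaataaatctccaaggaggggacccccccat

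Isg15 held 3 overlapping matches, at -78, -72 and -66, Bst2 held 2 overlapping ones, at -130 and -124, Ifit3 held 1 in this stretch, at -122, and Ifit1bl1 held 1, at -104. The table lists 2 starts for Ifit1bl1, and the one printed is the farther upstream. Genes that were higher and a gene that was lower in W thus both held the letters, and no match of these letters was found in the promoter of Oasl1. A match is a description of the sequence and not a bound site.

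The letters TGANTCA, the core bound by AP-1 factors, were present in 5 of 8 tested cornified envelope genes with a promoter, Ivl, Scel, Sprr1a, Sprr1b and Sprr2f, against 7.81% of all promoters and 6.51% of tested genes. They were also present in 8 of the 25 interferon-stimulated genes. Sprr1a, the most abundant of them in W, held 2 matches, at -146 and -116, in capitals.
Sprr1a, chr3:92485882-92486031, minus strand: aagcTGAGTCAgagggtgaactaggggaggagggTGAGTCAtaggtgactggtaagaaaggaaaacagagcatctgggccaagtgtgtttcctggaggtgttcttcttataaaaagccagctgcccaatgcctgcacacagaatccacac
Of these 5 genes Scel was lower in W, so the letters were found in genes of both directions.

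Of 13 tested immediate early factors, 3 were at least 2-fold lower in W, against 9.41% of all genes, Egr1, Fos (1368 and 612 CPM) and Ier2 (1026 and 453 CPM), and 1 was higher, Atf3 (438 and 940 CPM), which was below 2-fold under TMM (0.94). Egr1 was also lower in clusters 2 (-2.11) and 7 (-2.03). Genes of this kind are known to be induced while tissue is dissociated, and each library was dissociated once. Of 23 tested differentiation transcription factors, 17 were within 2-fold, among them Klf5 (369 and 330 CPM), Elf3 (2004 and 2176 CPM), Ehf (401 and 308 CPM) and the eye regulator Pax6 (207 and 176 CPM). Ovol1 (238 and 96.6 CPM) and Hes1 (642 and 303 CPM, but a log2 ratio of -0.79 in thinned cells) were lower, and of 4 that were higher 3 were compared only through W, among them Barx2 (2.16 and 19.1 CPM). Of 15 tested circadian clock genes, 4 were at least 2-fold lower against the same share, Per3 (44.8 and 18.7 CPM), Cry2 (26.6 and 7.72), Tef (23.8 and 11.6, but a log2 ratio of -0.70 in thinned cells) and Hlf (48.9 and 14.4 CPM), and 1 was higher, Arntl (log2 ratio 1.19, compared only through W). Over all genes, 11.3% were at least 2-fold higher, the share to set beside the higher members of these lists. The hour of collection was not given in the sources used here.

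Of 16 tested alarmins and antimicrobial proteins, 8 were at least 2-fold higher in W, 6 of them through W only, and 1, the defensin gene Defb1 (1304 and 616 CPM), was lower. Over all genes, 11.3% were higher and 9.41% lower, which is the comparison for the other lists given here too. S100a7a was at 75.7 and 362 CPM, against 4.44 CPM in cluster 0 of W, and the interleukin gene Il1a at 51.3 and 238 CPM, against 7.67 CPM. Of 13 tested chemokines, cytokines and EGF receptor ligands, 8 were higher, 7 of them through W only, and 1, Btc (39.3 and 16.7 CPM), was lower. Areg, which encodes amphiregulin, was at 159 and 781 CPM, whereas Hbegf was at 1586 and 1158 CPM. Ccl2 (0.253 and 29.1 CPM) and Cxcl1 (0.804 and 11.9 CPM) were below their levels in cluster 0 of W (861 and 255 CPM). Of 13 tested hypoxia-regulated genes, 4 were higher, with Adm at 32.3 and 211 CPM, and 3 were lower, Ndrg1, Egln1 (27.4 and 12.9 CPM) and Pfkfb3 (17.6 and 8.73 CPM, but a log2 ratio of -0.92 in thinned cells), so the list had no common direction. Of 11 tested lipid barrier genes, 4 were higher, Fabp5 and, through W only, Plin2 (3.93 and 23.2 CPM), Elovl4 and Alox15, and none was lower. Of 9 tested corneal crystallins, 2 were higher, Aldh1a3 (66.8 and 441 CPM) and Gapdh (221 and 468 CPM, but 0.92 on the log2 scale under TMM), and 1 was lower, Cryab (758 and 218 CPM), while Aldh3a1 was at 2558 and 1898 CPM. Of 11 tested migration and matrix genes, 7 were higher, 3 of them through W only, but cluster 0 of W held Mmp3 at 4515 CPM against 97.2 in cluster 6, and Vim at 3127 against 55.3 CPM.

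Markers of other cell types were read in the same sums. The summed level of the 6 stromal markers was 290 CPM for UW and 377 for W, none of the 6 passed 2-fold, and cluster 0 held 76962 and 40408 CPM of them. Of the 6 neutrophil markers, S100a8 and S100a9 were compared only through their W levels, and Csf3r, Cxcr2, Retnlg and Ly6g were below the limit for testing. The level of S100a8 per S100a9 was 0.0885 in cluster 6 of W, 0.0829 in cluster 2 and 0.0847 in cluster 7, against 0.682 in cluster 13, where S100a9 was at 19963 CPM, and 1.11 in cluster 0. Of the 7 monocyte and macrophage markers, 5 were compared only through their W levels (Lyz2, Cd74, Fcer1g, Tyrobp and C1qa), and the list summed to 151 CPM in UW and 225 in W. Itgam made up most of that sum, at 144 and 117 CPM, and was found in 46.0% of thinned cells in UW and 41.1% in W, against 1.81% and 1.41% in cluster 0. The other 6 markers held 288 UMIs in UW and 1616 in W, and 2 UW cells held 195 of the former and 7 W cells 1156 of the latter. No T cell marker passed the limit for testing, and that list summed to 0 CPM in UW and 2.28 CPM in W. Of the cells of cluster 6, 21 in UW and 1 in W had been called doublets in an earlier deposited column, whereas the final deposited column calls every cell a singlet.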

How the data were processed

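Corneal cells of 4 unwounded mice (UW) and of 4 mice 24 h after wounding (W) had been pooled by condition and sequenced on the 10x Genomics platform, with 1 library per condition. The authors made the deposited UMI counts, whole numbers per gene and cell that were not normalized, with Cell Ranger 3.1.0 and Seurat; the paper names mm10 and the submitters' processing notes mm9, and the kit version also differs between paper and labels. The authors filtered cells on genes, mitochondrial share and doublets (by a final call, beside which an earlier and wider call is kept), and deposited cells held 501 to 7570 genes and at most 9.99% mitochondrial UMIs.

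Members were the cells with deposited cluster number 6. Counts were summed per library and divided by the sum, and a sum of 0 was set to 3 counts as a bound. Genes with at least 20 counts over both sums and 5 CPM in a library were compared, and called past 2-fold. Named genes were the 12 highest and 12 lowest ratios with at least 100 CPM in a library (no mitochondrial, haemoglobin or ribosomal protein genes), the 15 leading identity genes with at least 50 CPM, and members of 29 gene lists. A few other genes were named after their values were seen. The members and lists were chosen with earlier results of these data known. The functions were tested on simulated data. Python 3.11.15, numpy 2.4.6, pandas 2.3.3, scipy 1.17.1, and edgeR 4.0.16 under R 4.3.3 (TMM factors only) were used. Gene symbols found in GENCODE M21 numbered 19908 of 20198.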

Additional observations from a re-analysis of the deposited data

How the results depend on the processing

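Cells were not assigned to mice here and each condition was treated as 1 library, so no replicate was left out and counting error was the only error measured. No paired analysis was possible because each group has 1 library and no test was made. Without a filter on low counts, 3683 genes were at least 2-fold higher and 1361 lower, and with at least 100 counts and 20 CPM 395 and 417, as the number of genes compared differed. Scaling, thinning of cells, stricter limits on cells, leaving out called doublets and the mean over cells gave 685 to 982 higher and 700 to 990 lower. The 141 genes chosen for naming that were past 2-fold kept their direction where cells or their weights changed (a change of scaling shifts all ratios alike and could not turn one), and 131 to 141 stayed past it. Thinning moved 22 of their values by over 1.5 times and the other settings 0 to 4. Under TMM Krt13 (0.88), Atf3 (0.94), Gapdh (0.92), Pkp3 (0.87) and Col17a1 (0.96) did not, and Lce3a (0.54), Cdkn1a (-0.83), Hes1 (-0.79), Tef (-0.70) and Pfkfb3 (-0.92) did not in thinned cells. The share of cells in W less that in UW was -4.07 percentage points, and -3.69 to -4.36 under its alternatives. Chosen after seeing the data, the sums over the largest second-set cluster of each library gave 847 higher and 692 lower, and those without cells holding 10 or more UMIs of 6 immune markers 838 and 710.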

Other observations

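The transcript Gm42418, at chr17:39846958-39848788 on the plus strand in GRCm38, was at 908 CPM in cluster 6 of UW and 5637 CPM in W, and Lars2 at 14.7 and 148 CPM, both chosen after their values were seen. Gm42418 was at 5214 CPM in stromal cluster 0 of UW and 3070 CPM in that of W. The log2 ratio of Gm42418 was 2.63 in cluster 6, 2.46 in cluster 2, 1.91 in cluster 7 and 2.85 in cluster 4, and that of Lars2 was 3.33, 2.99, 3.13 and 3.30. Gm42418 is not a member of any list, and its part in the other levels of W was not tested.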
